A study of Mus musculus with 61 samples.

Results

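Oxidative phosphorylation is carried out by 5 protein complexes of the inner mitochondrial membrane, and most of their subunits are encoded in the nucleus. The nuclear genes described here were taken by name from the deposited gene counts of a morphine study of the mouse nucleus accumbens. They are the protein-coding genes whose symbol opens with Ndufa, Ndufb, Ndufc, Ndufs or Ndufv and a number (complex I), Sdha to Sdhd (complex II), Uqcr or Cyc1 (complex III), Cox4 to Cox8 and a letter (complex IV), or Atp5 (ATP synthase), with names in the style of pseudogenes left out. The rule gave 90 of 55401 gene identifiers: 35 for complex I, 8 for complex II, 9 for complex III, 20 for complex IV and 18 for ATP synthase. Because the rule reads only the opening of a symbol, the complex II set holds 4 assembly factors (Sdhaf1 to Sdhaf4), and Ndufa4 and Ndufa4l2 were counted with complex IV, where their proteins are now placed. Ndufab1, a complex I subunit, and the ATP synthase inhibitor, which the annotation names Atpif1, fall outside the rule. All 90 genes passed the filter on low counts in every fit.

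The RNA came from nuclei of male double-transgenic mice in which a Cre-dependent eGFP::L10a fusion was switched on by D2-Cre or by D1-Cre, driver lines for the indirect-pathway and direct-pathway projection neurons of the striatum. Nuclei were isolated by fluorescence-activated sorting from frozen bilateral punches of the nucleus accumbens, and total RNA was made into libraries with a stranded low-input kit that does not select polyadenylated RNA. Mice received saline or morphine daily for 15 days, spent 30 days in withdrawal in the home cage, and received a challenge injection of saline or morphine 1 h before collection. The groups were saline history with morphine challenge (SM; 7 D2 and 8 D1 libraries), morphine history with saline challenge (MS; 8 D2 and 9 D1), morphine at both times (MM; 7 D2 and 7 D1) and saline at both times (SS; 7 D2 and 8 D1), 61 libraries in all. The labels list more than 1 dose without tying it to a group, so no dose is given. The labels give neither ages nor whether a library came from 1 animal or a pool, so p-values measure the spread between these libraries. The D2 and D1 labels were checked with marker genes. Drd2, the receptor gene that names the D2 class, had a median of 770.5 scaled counts-per-million (CPM) in D2 libraries and 73.4 in D1 libraries, and Drd1 had 10.9 in D2 libraries and 57.5 in D1 libraries.

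In the respiratory chain, complex I takes electrons from NADH and complex II from succinate, complex III passes them to cytochrome c, and complex IV hands them to oxygen. Complexes I, III and IV pump protons, and ATP synthase uses the gradient to make ATP, which neurons spend mostly on ion pumping and synaptic transmission. Some complex IV subunits come as a general isoform and a second isoform best known from heart and skeletal muscle, lung or testis, and many promoters of these genes are known to bind the factors NRF1, GABP and YY1.

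Promoters of 7 members are printed to show each complex: Ndufa8, Uqcrh and Atp5k are among the smallest p of a comparison below, Atp5b has the highest level, Sdhb stands for complex II, and Cox6a1 and Cox8b for a general and a muscle isoform of complex IV. RefSeq windows on GRCm38.p6, from 250 bases before to 50 bases after the start, were found for 72 of the 89 different member symbols and for 17492 coding genes. Each line gives the 250 bases before the start, 5′ to 3′ on the gene's strand. Capitals mark matches, on either strand, to the NRF1 core GCATGCGC or its full palindrome, the core preceded by GC, and to the GABP motif CCGGAAG (read CTTCCGG on the other strand). The windows are Ndufa8 (an accessory subunit of complex I) at chr2:36049339-36049588 on the minus strand, Sdhb (the iron-sulfur subunit of complex II) at chr4:140961021-140961270 on the plus strand, Uqcrh (the hinge subunit of complex III) at chr4:116075071-116075320 on the minus strand, Cox6a1 (the general isoform of subunit 6a of complex IV) at chr5:115348959-115349208 on the minus strand, Atp5k (subunit e of ATP synthase) at chr5:108434400-108434649 on the minus strand, Atp5b (the catalytic beta subunit) at chr10:128083057-128083306 on the plus strand, and Cox8b (the heart and muscle isoform of subunit 8) at chr7:140900447-140900696 on the minus strand.
Ndufa8: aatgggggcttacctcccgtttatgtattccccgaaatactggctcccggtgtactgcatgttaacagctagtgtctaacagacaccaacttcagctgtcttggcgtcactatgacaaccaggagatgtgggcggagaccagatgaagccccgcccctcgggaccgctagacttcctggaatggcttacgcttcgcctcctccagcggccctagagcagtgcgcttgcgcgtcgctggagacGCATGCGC
Sdhb: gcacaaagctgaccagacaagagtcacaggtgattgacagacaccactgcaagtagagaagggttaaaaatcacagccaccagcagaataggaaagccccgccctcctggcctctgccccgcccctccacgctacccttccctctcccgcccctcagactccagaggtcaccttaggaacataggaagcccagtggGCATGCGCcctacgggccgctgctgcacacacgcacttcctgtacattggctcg
Uqcrh: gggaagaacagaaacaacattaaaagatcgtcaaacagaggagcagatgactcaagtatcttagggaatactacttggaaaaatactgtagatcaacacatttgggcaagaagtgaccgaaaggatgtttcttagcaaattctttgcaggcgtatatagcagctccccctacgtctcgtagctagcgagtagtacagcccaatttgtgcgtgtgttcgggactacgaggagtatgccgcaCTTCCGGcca
Cox6a1: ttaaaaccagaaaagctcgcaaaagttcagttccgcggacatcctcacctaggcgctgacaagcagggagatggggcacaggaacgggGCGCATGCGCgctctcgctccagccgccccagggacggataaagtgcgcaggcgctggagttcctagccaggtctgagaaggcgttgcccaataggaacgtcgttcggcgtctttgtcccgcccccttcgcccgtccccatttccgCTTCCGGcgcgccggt
Atp5k: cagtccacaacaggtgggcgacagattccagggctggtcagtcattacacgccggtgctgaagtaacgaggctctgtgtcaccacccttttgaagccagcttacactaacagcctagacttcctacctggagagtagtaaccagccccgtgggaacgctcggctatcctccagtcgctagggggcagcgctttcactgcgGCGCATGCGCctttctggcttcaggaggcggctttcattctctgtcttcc
Atp5b: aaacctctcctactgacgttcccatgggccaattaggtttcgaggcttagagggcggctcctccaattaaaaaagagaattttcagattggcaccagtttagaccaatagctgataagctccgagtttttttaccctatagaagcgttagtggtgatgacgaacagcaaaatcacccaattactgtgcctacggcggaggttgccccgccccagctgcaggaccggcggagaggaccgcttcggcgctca
Cox8b: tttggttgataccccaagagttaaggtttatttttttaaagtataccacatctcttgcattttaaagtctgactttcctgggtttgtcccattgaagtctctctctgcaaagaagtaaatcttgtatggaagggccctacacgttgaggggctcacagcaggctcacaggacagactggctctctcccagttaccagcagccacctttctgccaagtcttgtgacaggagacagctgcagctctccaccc

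In these lines the NRF1 core opened 8 bases before the start of Ndufa8 and 54 bases before that of Sdhb. The full palindrome, which holds the core on both strands, opened 50 bases before the start of Atp5k and 162 bases before that of Cox6a1. The GABP motif opened 10 bases before the start of Uqcrh and 16 bases before that of Cox6a1. Atp5b and Cox8b held neither motif in these 250 bases. The starts in the annotation that matches the counts lie up to 68 bases further upstream (Ndufa8 and Sdhb), so the last bases of some lines fall inside that release's gene.

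Over the whole 300-base window, the full NRF1 palindrome was found in 5 of the 72 member promoters (6.94%), those of Atp5g2, Atp5k, Cox6a1, Ndufa11 and Uqcrc1, against 1.47% of all coding genes. The core was found in 10 members (13.9%), against 3.94%, and the GABP motif in 19 (26.4%), against 12.9%. The YY1 motif AAGATGGCG was found in 7 members (9.72%), against 2.14%, and these were Atp5j, Atp5j2, Ndufa9, Ndufc1, Ndufs4, Ndufs6 and Ndufs7. The ERRα motif TCAAGGTCA was found in 2 members (2.78%), Atp5g3 and Sdhd, against 0.377%. The GC-rich SP1 motif GGGGCGGGG was about as common in the members (16.7%) as among coding genes (17.3%). Both strands were searched, and 30 members (41.7%) held at least 1 of the core, GABP and YY1 motifs, against 17.6% of coding genes. These matches are letters in a window and were not tested as binding sites.

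The deposited lengths are those of whole genes, introns included, and genes with no known use in these neurons also held counts. Each level was therefore set against a background of 1420 genes for olfactory and vomeronasal receptors. The unit below is the gene's count density per kilobase divided by that background density in the same library. The median over the 61 libraries was at least 2 times background for 59 of the 90 genes, between 1.5 and 2 times for 19, and under 1.5 times for 12. The median of the 90 genes was 2.29 times background. Among other housekeeping machines, 66 of 84 cytosolic ribosomal protein genes (median 2.96 times), 38 of 78 mitochondrial ribosomal protein genes (1.96 times) and 21 of 39 proteasome genes (2.06 times) reached 2 times background. Ndufv2, a core iron-sulfur subunit of complex I, lay just inside the line at 2.003 times, and Cox7b, a small subunit of complex IV, just outside it at 1.96 times.

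ATP synthase held the densest genes. Atp5b reached 8.46 times background (7.87 in D2 and 9.21 in D1 libraries). Its mean was 4.54 ± 1.73 FPKM over the 61 libraries (SD), where FPKM here divides by the whole gene span. On the same strand, Mir677 and Snord59a overlap it. Atp5a1, the alpha subunit, which overlaps Haus1, followed at 7.06 times, and the stalk and membrane subunits Atp5k, Atp5d (delta) and Atp5h (d) stood at 5.71, 4.27 and 4.11 times. The 3 genes for the same c-ring protein differed, with Atp5g3 at 3.91, Atp5g2 at 2.33 and Atp5g1 at 2.21 times background. The small epsilon subunit gene Atp5e stood at 2.09 times. In all 15 of 18 ATP synthase genes reached 2 times, with a median of 2.89. The lowest identifier was a 242.6-kb readthrough model under the name Atp5o, which spans Itsn1, Cryzl1, Donson and Atp5o and stood at 1.00 times background. It took 9.46% of all counts of the 90 genes, and summed levels below leave it out.

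Complex I had 24 of 35 genes at or over 2 times, with a median of 2.31. Its 7 core genes, which carry the flavin, iron-sulfur clusters and quinone site, had a median of 3.15 times, against 2.17 times for the 28 accessory genes. Ndufv1, which binds NADH, stood at 4.61 times and the accessory gene Ndufb10 at 5.65 times, while Ndufs1, the largest iron-sulfur subunit, stood at 1.85 times. Ndufs4, a late-assembling subunit whose loss causes Leigh syndrome in humans, stood at 1.60 times, Ndufa13 at 1.31 times and Ndufa1 at 1.13 times. All 9 complex III genes reached 2 times (median 2.45), led by Cyc1, cytochrome c1, at 5.25 times. Uqcrc1, a core protein, stood at 3.55 times, Uqcrq at 2.69 times and Uqcrfs1, the Rieske iron-sulfur protein, at 2.27 times. In complex II, Sdhb (2.91 times), Sdha, the flavoprotein (2.58), and Sdhd, a membrane anchor (2.42), reached 2 times, Sdhc did not (1.80), and the 4 assembly factors lay between 1.09 and 1.93 times.

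In complex IV most general subunits stood above the tissue isoforms, though the ranges overlapped. Cox7c (4.08 times), Cox5b (3.89), Cox8a (3.32), Cox6a1 (2.80), Cox6c (2.43), Ndufa4 (2.14) and Cox7a2 (2.09) reached 2 times background. The general subunits Cox7b, Cox5a and Cox6b1 stood at 1.96, 1.91 and 1.78 times. None of the 8 tissue or stress isoforms reached 2 times, with a range of 1.07 to 1.72 times and a median of 1.45. The muscle isoforms Cox7a1, Cox8b and Cox6a2 stood at 1.72, 1.62 and 1.19 times, against 2.09, 3.32 and 2.80 times for their general partners Cox7a2, Cox8a and Cox6a1. Cox4i2, the lung and hypoxia isoform, had a median of 1.70 times, close to that of its general partner Cox4i1 (1.69 times), which shares its locus with Emc8. For Cox4i1 the highest single library stood at 22.1 times, and this was replicate 1 of D1 SS, which had the lowest background. For Cox4i2 the highest library stood at 2.28 times. Over 2 times background lay 18 of the 61 libraries for Cox4i1 and 12 for Cox4i2. Markers of other cells had list medians inside the isoforms' range, among them astrocyte (1.43 times), oligodendrocyte (1.33) and cortical glutamatergic genes (1.46). Medians this near background therefore do not show that Cox4i2 and Cox4i1 were equally expressed. Cox6a2 had a median of only 10 counts a library. Of the 90 genes, 41 overlap another gene and 28 overlap a coding gene, and several, the c-ring genes among them, have processed pseudogene copies. How reads that fit several places or either strand were counted is not stated in any source read here, so the levels of overlapping and copied genes are uncertain.

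**Figure D1:**
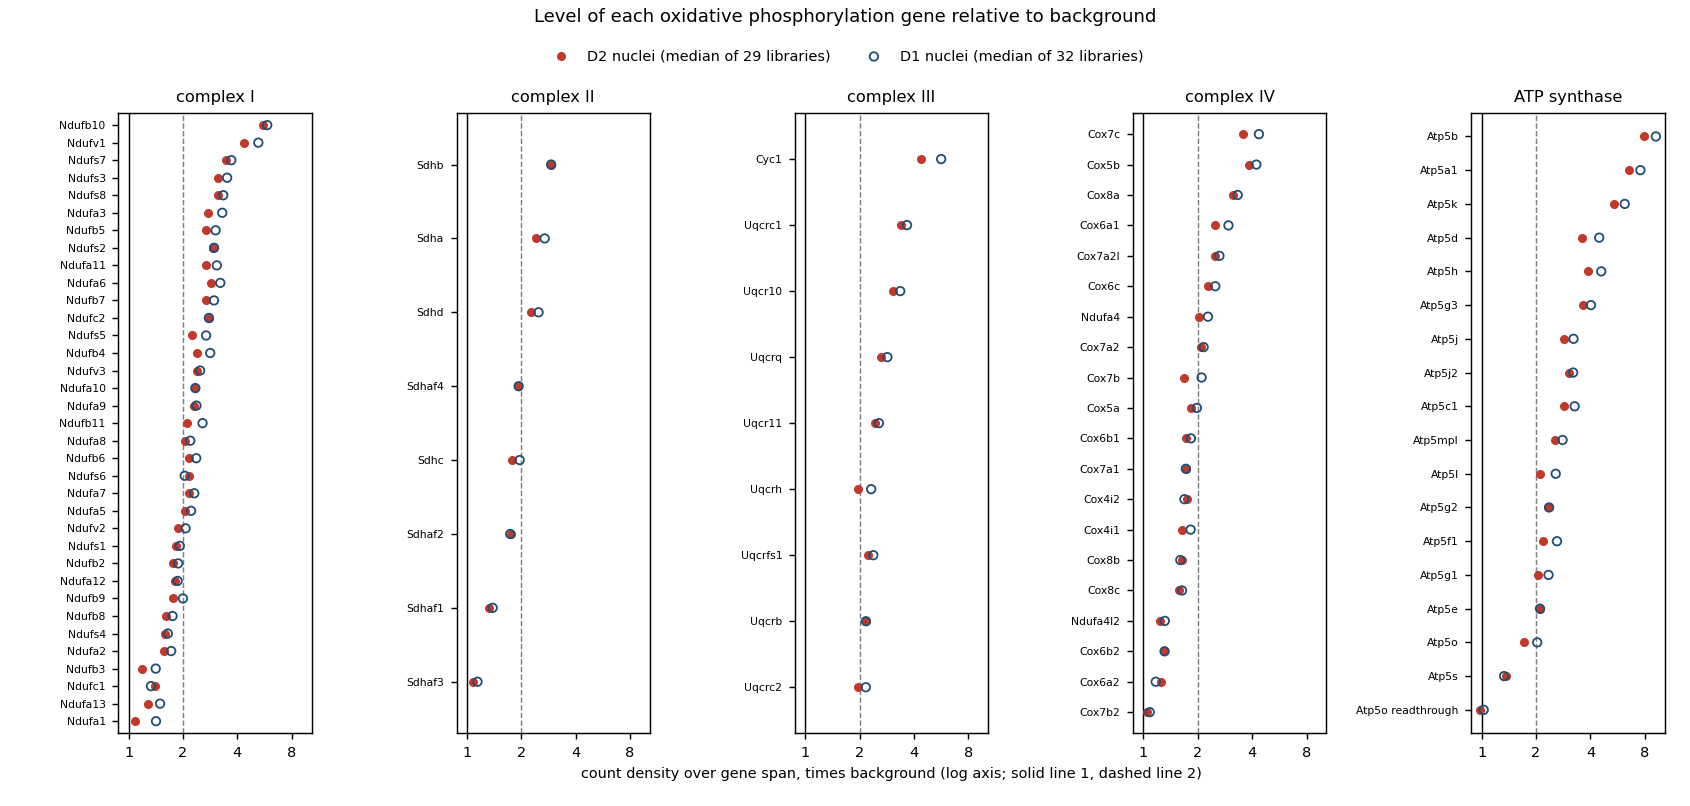
Count density of each gene over its span, as a multiple of background density (log axis), by complex; filled points are medians of 29 D2 libraries and open points medians of 32 D1 libraries. Atp5b is highest at 8.46 times over all libraries, complex III lies at or over 2 times except for the D2 medians of Uqcrh and Uqcrc2 (both 1.95), and the complex IV tissue isoforms gather below 2 times.

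The libraries held 11518606 to 26108954 counts and differed in their background. Background density ran from 0.0571 to 0.659 CPM per kilobase, and the background accounted for 4.69% to 71.5% of the counts of 89 members. The summed level of the 89 genes was 980 to 1528 CPM before scaling, and 846 to 3406 CPM after scaling by TMM, edgeR's trimmed-mean library scaling. Replicate 1 of D1 SS had the lowest background, the highest scaled sum (3406 CPM) and a TMM factor of 0.388, with the next lowest factor at 0.811. In that library the 5 cortical glutamatergic marker genes summed to 769 scaled CPM, against at most 196 in any other library. Its 9 D2 class markers summed to 3518 scaled CPM, against at most 1418 in the other D1 libraries and a median of 2100 in D2 libraries. Its 9 D1 class markers were also the highest, at 1242 scaled CPM, against at most 1048 in any other library. Replicate 2 of D1 MS also stood apart, with 1886 scaled CPM and a background of 0.278 CPM per kilobase. Background-subtracted CPM, in which the background is subtracted from both the members and the total, ran from 1248 to 2706. In these bulk samples fewer cells of a type and less RNA per cell cannot be told apart.

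**Figure D2:**
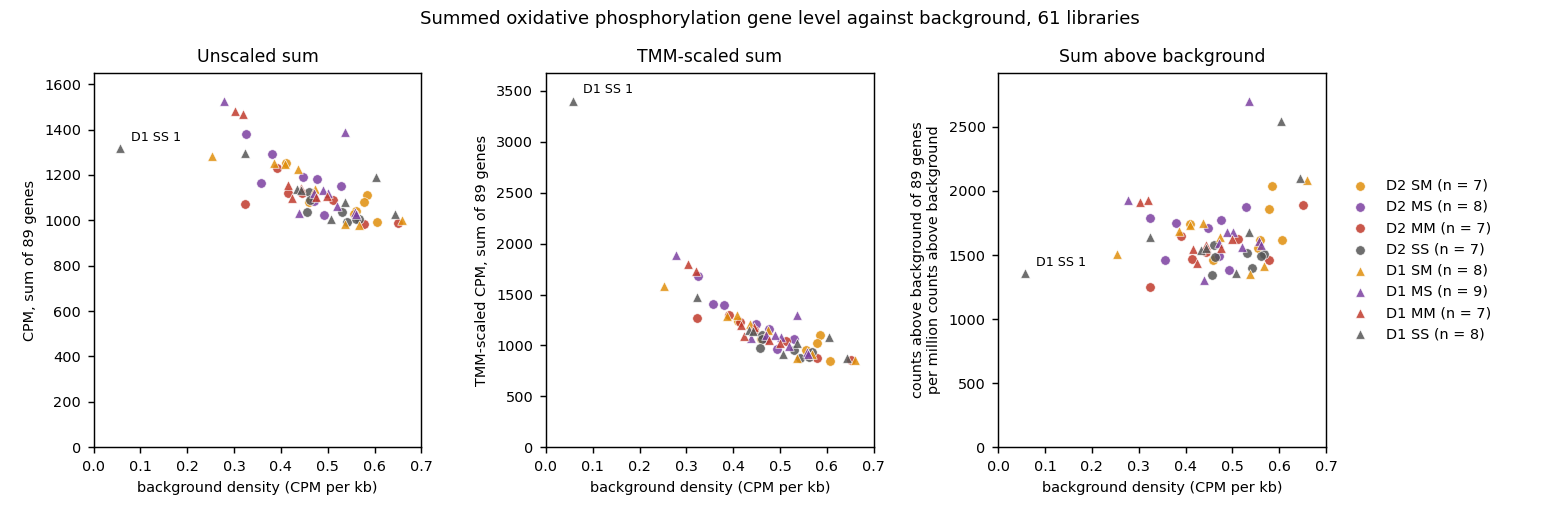
Summed level of 89 oxidative phosphorylation genes in each of 61 libraries against that library's background density (CPM per kb), for the unscaled sum, the TMM-scaled sum and the background-subtracted CPM; circles are D2 and triangles D1 libraries, coloured by treatment. After scaling the sum is higher where the background is lower, with D1 SS replicate 1 at 3406 CPM and 0.0571 CPM per kb.

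Morphine history followed by a saline challenge gave the widest difference among the pairs of D2 groups compared, and it did not pass the test. D2 MS was not compared with D2 SM. In D2 MS against D2 SS, 81 of the 90 genes had a higher fitted level and 9 a lower one, with a median log2 difference of 0.37, against -0.05 over all 41125 genes tested. No gene was called by edgeR's quasi-likelihood test at an adjusted p of 0.05, neither among the 90 nor in the whole table (0%), and the lowest adjusted p of a member was 0.0713. At an unadjusted p under 0.05 there were 71 of the 90 genes, against 32% of all genes. DESeq2 called 53 of the 90, all higher, against 16.6% of all genes (12.9% called higher). The summed level of 89 genes was 967, 1187 and 1685 scaled CPM (lowest, median, highest) in D2 MS and 880, 951 and 1105 in D2 SS, so the groups overlapped.

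The 3 genes with the smallest p were Ndufa5, Uqcr10 and Ndufa13. Ndufa5, an accessory subunit of the matrix arm of complex I (ENSMUSG00000023089.12, chr6:24518666-24528013, minus strand, mm10), had 8.89, 10.8 and 13.1 scaled CPM (lowest, median, highest) in D2 MS and 5.87, 8.48 and 9.32 in D2 SS. The lower D2 MS libraries overlapped the upper D2 SS libraries. Its means were 10.9 ± 1.51 and 8.18 ± 1.12 (SD, n = 8 and 7), a log2 difference of 0.40 ± 0.09 (SE, edgeR adjusted p = 0.0713). Uqcr10, a small subunit of complex III (chr11:4701973-4704342, minus strand), had 2.94, 4.40 and 7.57 scaled CPM in D2 MS and 2.31, 2.65 and 3.86 in D2 SS, a log2 difference of 0.69 ± 0.17. Here too the ranges overlapped, and the highest D2 MS library lay far above every D2 SS library. Ndufa13, a membrane-arm subunit also known as GRIM-19 (chr8:69894180-69902558, minus strand), had 4.47, 5.74 and 9.46 in D2 MS and 3.18, 4.07 and 4.88 in D2 SS, a log2 difference of 0.54 ± 0.13. The overlap was narrow, since the lowest D2 MS library lay under the highest D2 SS library.

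Across the complexes the higher fitted levels in D2 MS were shared. All 35 complex I genes were higher (median 0.38), all 9 of complex III (0.50), all 18 of ATP synthase (0.45), 6 of 8 of complex II (0.17) and 13 of 20 of complex IV (0.30). Atp5b, the member with the highest count density, had 19.8, 37.7 and 60.7 scaled CPM in D2 MS and 17.5, 20.3 and 30.5 in D2 SS, a log2 difference of 0.75 ± 0.20. The median D2 MS library lay above every D2 SS library, though the ranges overlapped. Ndufv1 differed by 0.75 ± 0.23, Ndufb10 by 0.84 ± 0.27, Cyc1 by 0.74 ± 0.25, Atp5g3 by 0.73 ± 0.20 and Atp5a1 by 0.72 ± 0.20, and none of these was called. Smaller differences were fitted for Cox7c (0.60 ± 0.20), Cox4i1 (0.54 ± 0.16), Sdha (0.50 ± 0.14), Ndufs1 (0.40 ± 0.12) and Sdhb (0.37 ± 0.14). The 59 genes at or over 2 times background were all higher in D2 MS (median 0.40), and of the 31 under that line 22 were (median 0.19).

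The 9 genes with a lower fitted level in D2 MS were Cox6a2, Cox8c, Cox6b2, Cox8b, Cox7b2, Sdhaf4, Cox4i2, Ndufa4l2 and Sdhaf1, of which 7 are tissue or stress isoforms of complex IV. All 9 stood under 2 times background. Cox6a2, the muscle isoform of subunit 6a, had 0.329, 0.394 and 0.678 scaled CPM in D2 MS and 0.548, 0.750 and 0.925 in D2 SS. Its log2 difference of -0.73 ± 0.21 was the most negative of the 90 (edgeR adjusted p = 0.0713). Its general partner Cox6a1 had 3.46, 4.65 and 6.30 in D2 MS and 3.28, 3.75 and 4.64 in D2 SS. Both genes overlapped between the groups, with Cox6a2 lower and Cox6a1 higher at the median of D2 MS. Cox6a2 stood close to background over all libraries (1.19 times, a median of 10 counts), so the pair does not show a shift between isoforms. Cox4i2 differed by -0.11 and Cox8b by -0.20.

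Background and other gene lists moved with this difference. Background density had a median of 0.460 CPM per kilobase in D2 MS and 0.530 in D2 SS, and it made up a median of 42.2% of the members' counts in D2 MS and 55.4% in D2 SS. With log2 background density as a covariate, 79 of the 90 genes were higher (median 0.16) and 36 had an unadjusted p under 0.05, against 13.7% of all genes. Background-subtracted CPM had a median of 1729 in D2 MS and 1495 in D2 SS. In the same comparison 80 of 84 cytosolic ribosomal protein genes were higher (median 0.39), 74 of 78 mitochondrial ribosomal protein genes (0.20) and 33 of 39 proteasome genes (0.29). All 9 measured D2 class markers were higher (median 0.60), with sums of 1804, 2414 and 4627 scaled CPM in D2 MS and 1438, 1694 and 2307 in D2 SS (lowest, median, highest). Markers of other cells were mostly lower: 0 of 6 endothelial, 1 of 8 astrocyte, 1 of 8 microglial, 0 of 5 cortical glutamatergic and 1 of 7 interneuron genes were higher, as were 3 of 10 oligodendrocyte genes. The part of background and cell composition in the members' difference was not tested beyond the covariate fit.

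**Figure D3:**
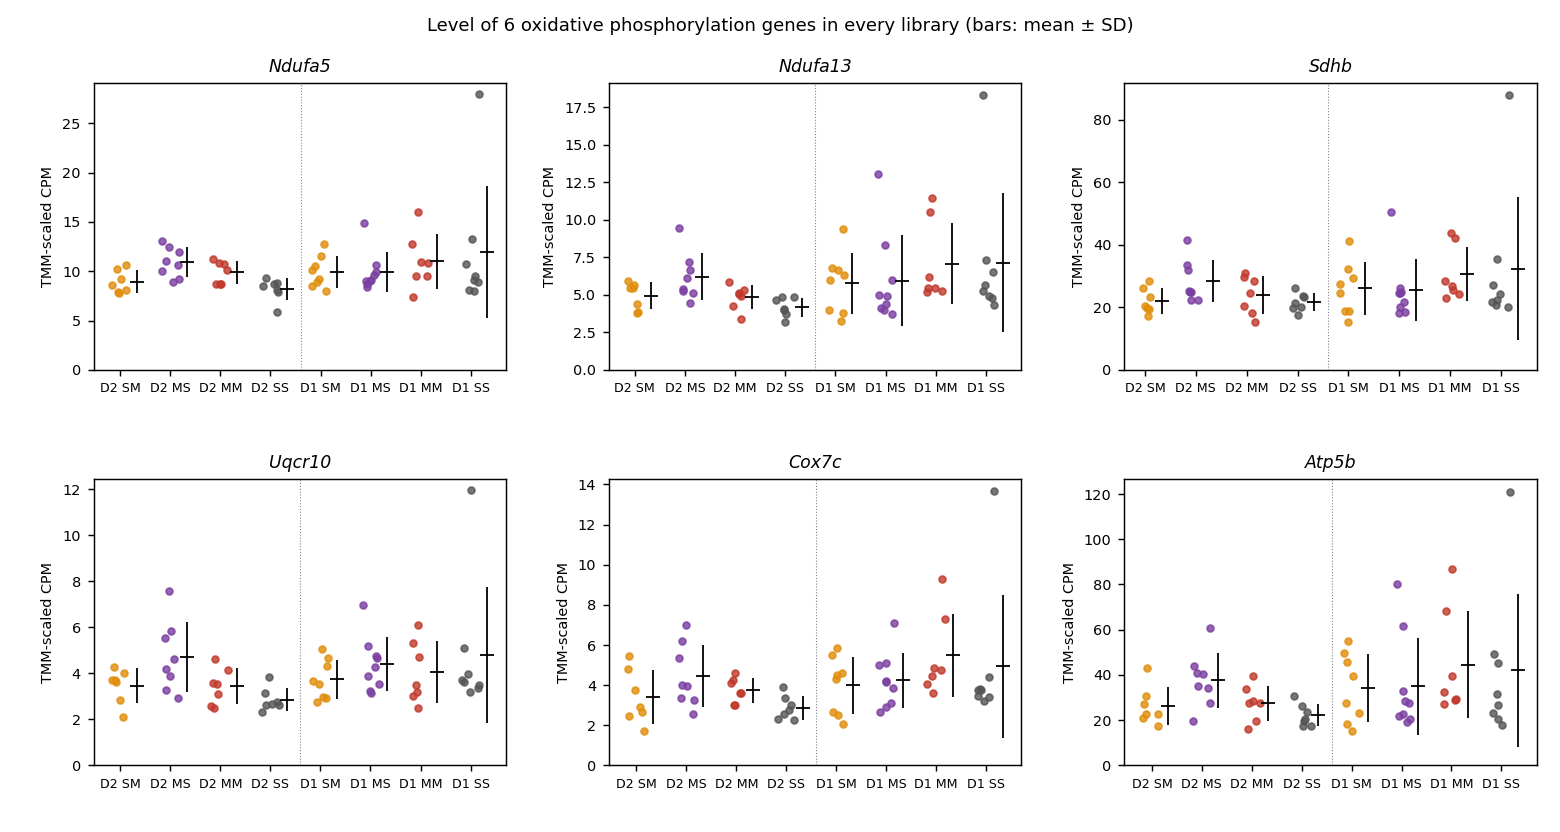
TMM-scaled CPM of Ndufa5, Ndufa13, Sdhb, Uqcr10, Cox7c and Atp5b in every library (points), with mean ± SD bars, by group, D2 groups left of D1 groups and SM, MS and MM left of SS. D2 MS reaches above D2 SS in each panel with overlapping ranges, and 1 D1 SS library stands far above the rest, at 121 CPM for Atp5b.

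The steps around this difference point to other groups. In D2 MM against D2 SS, 80 genes were higher and 10 lower (median 0.18), none was called (0% of all genes), and 12 had an unadjusted p under 0.05, a share of the 90 close to the 13.3% of all genes. Ndufa5 again had the smallest p, with 8.70, 10.2 and 11.3 scaled CPM in D2 MM and 5.87, 8.48 and 9.32 in D2 SS (log2 difference 0.26 ± 0.10, edgeR adjusted p = 0.361). Ndufb3, an accessory subunit, had 5.06 to 8.90 in D2 MM and 4.63 to 5.64 in D2 SS (0.35 ± 0.13), and Atp5f1, the b subunit of the ATP synthase stalk, differed by 0.34 ± 0.13. The first morphine challenge was compared next. In D2 SM against D2 SS, 73 genes were higher and 17 lower (median 0.09), none was called (0%), and 2 had an unadjusted p under 0.05, against 3.24% of all genes. Atp5e had 2.57, 3.28 and 3.65 in D2 SM and 1.86, 2.55 and 3.10 in D2 SS (0.29 ± 0.13, edgeR adjusted p = 1.00), Cox6b2, the testis isoform of subunit 6b, differed by -0.43 ± 0.21, and Ndufs6 by 0.21 ± 0.11. The order of these comparisons turned with the background covariate: D2 SM against D2 SS had a median of 0.13 with 20 genes at an unadjusted p under 0.05 (7.97% of all genes), and D2 MM against D2 SS had 0.04 with 9 (12.01%). MS, MM and SM were all set against the same D2 SS libraries.

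After morphine history, the morphine challenge went with lower fitted levels. In D2 MM against D2 MS, 8 genes were higher and 82 lower (median -0.18, against a median near 0 for all genes), none was called (0%), and 13 had an unadjusted p under 0.05, against 3.76% of all genes. Uqcr10 had 2.49, 3.53 and 4.62 scaled CPM in D2 MM and 2.94, 4.40 and 7.57 in D2 MS, a log2 difference of -0.46 ± 0.17 (edgeR adjusted p = 0.973), and the ranges overlapped. Ndufa8 differed by -0.20 ± 0.07 and Ndufa13 by -0.35 ± 0.13. Atp5b, with 16.2, 27.7 and 39.4 in D2 MM, lay between D2 MS and D2 SS at the median. The median of the 90 genes was -0.11 with the background covariate, with 74 lower and 17 at an unadjusted p under 0.05 (5.68% of all genes). In the interaction of challenge and history, (MM minus MS) minus (SM minus SS), 80 genes were negative (median -0.27), none was called (0%), and 16 had an unadjusted p under 0.05, against 3.56%. The smallest p values were those of Ndufa13 (-0.58 ± 0.19), Uqcr10 (-0.73 ± 0.24) and Atp5k (-0.51 ± 0.18), all at an edgeR adjusted p of 0.991. With the background covariate 78 genes were negative (median -0.23) and 39 had an unadjusted p under 0.05, against 9.12% of all genes.

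Morphine history was also compared under a morphine challenge. In D2 MM against D2 SM, 74 genes were higher and 16 lower (median 0.09), none was called (0%), and 4 had an unadjusted p under 0.05, against 7.73% of all genes. With the background covariate the direction turned, with 21 higher and 69 lower (median -0.07). The smallest p values belonged to 2 tissue isoforms, Cox8b (-0.51 ± 0.22) and Cox4i2 (-0.22 ± 0.09), and to Ndufs4 (0.17 ± 0.08), with an edgeR adjusted p of 0.608 each. Cox8b had 0.580, 0.932 and 1.47 scaled CPM in D2 MM and 0.993, 1.21 and 2.24 in D2 SM. Most D2 MM libraries lay below the D2 SM range.

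**Figure D4:**
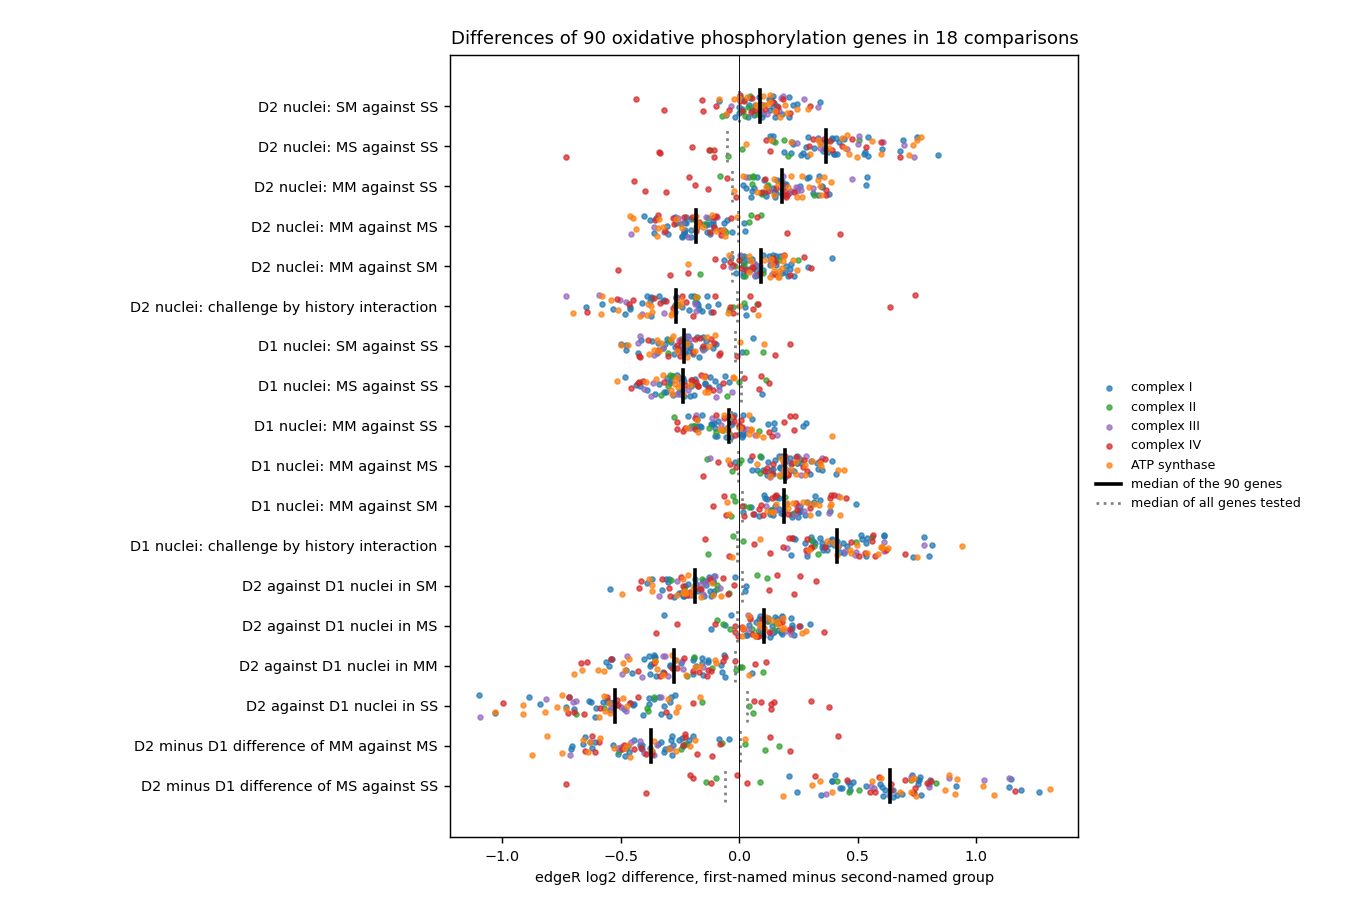
Fitted edgeR log2 difference of each of the 90 genes (points, coloured by complex) in 18 comparisons, first-named group minus second-named group; solid bars are the median of the 90 genes and dotted bars the median of all genes tested. The medians of the 90 genes are 0.37 in D2 MS against SS, -0.52 in D2 against D1 in SS and 0.64 in the D2 minus D1 difference of MS against SS, and no point was called.

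In D1 nuclei the directions against saline rested on 1 library. In D1 SM against D1 SS, 8 genes were higher and 82 lower (median -0.23), and in D1 MS against D1 SS 6 were higher and 84 lower (median -0.24). In D1 MM against D1 SS 32 were higher and 58 lower (median -0.05). No member was called in any of the 3 (0% of 41083 genes in each), and 0, 1 and 0 members had an unadjusted p under 0.05, against 1.87%, 2.68% and 1.92% of all genes. Without replicate 1 of D1 SS, 73 genes were higher in D1 SM (median 0.08), 74 in D1 MS (0.08) and 83 in D1 MM (0.30, with 5 at an unadjusted p under 0.05, against 5.68% of all genes). Without replicate 2 of D1 MS, the median of D1 MS against D1 SS was -0.35, with 84 lower and 11 at an unadjusted p under 0.05, against 11.6% of all genes. With the background covariate and all libraries kept, 59, 75 and 76 of the 90 were higher in SM, MS and MM, with medians of 0.03, 0.08 and 0.15. In MM 11 had an unadjusted p under 0.05, against 8.50% of all genes.

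Single genes in D1 nuclei varied in this dependence. Of the results for the 3 genes with the smallest p in each comparison with D1 libraries, 34 kept their direction without replicate 1 of D1 SS. That count includes comparisons that hold no D1 SS library, such as D1 MM against D1 MS, where a turn was hardly possible. The direction turned in 2, those of Cox6b1 and Sdhaf2 given below, both from comparisons against D1 SS. Atp5b had 19.4, 27.5 and 80.3 scaled CPM in D1 MS, 27.0, 32.5 and 86.7 in D1 MM and 15.0, 33.6 and 55.2 in D1 SM, against 17.8, 29.2 and 121 in D1 SS, where the other 7 libraries reached at most 49.4. All 4 groups overlapped. Cox7a1, the heart and muscle isoform of subunit 7a, was the 1 gene with an unadjusted p under 0.05 in D1 MS against D1 SS, with 0.772, 1.16 and 1.68 in D1 MS and 1.05, 1.68 and 2.83 in D1 SS (log2 difference -0.43 ± 0.19, edgeR adjusted p = 0.824). Its median in D1 MS lay near the lowest D1 SS library, and it stood at 1.72 times background. Ndufs4 (-0.26 ± 0.15) and Cox6b1, the general isoform of subunit 6b (-0.42 ± 0.24), followed, and Cox6b1 stood at 0.0029 without replicate 1 of D1 SS. In D1 SM the smallest p values were those of Ndufa8 (-0.28 ± 0.16), Ndufb2 (-0.42 ± 0.24) and Ndufa12 (-0.31 ± 0.18), all accessory subunits of complex I (edgeR adjusted p = 0.955). In D1 MM they were those of Sdhaf3 (-0.19 ± 0.11), Atp5k (0.39 ± 0.24) and Sdhaf2, which helps attach flavin to Sdha (-0.28 ± 0.19, edgeR adjusted p = 1.00), and Sdhaf2 stood at 0.035 without replicate 1 of D1 SS.

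The D1 comparisons that use no D1 SS libraries had mostly positive differences. In D1 MM against D1 MS, 81 genes were higher and 9 lower (median 0.19), and in D1 MM against D1 SM 82 were higher and 8 lower (median 0.19), with no member called (0%) and none at an unadjusted p under 0.05, against 2.29% and 1.34% of all genes. Without replicate 2 of D1 MS the median of MM against MS was 0.33, with 4 genes at an unadjusted p under 0.05 (5.34% of all genes). The medians with the background covariate were 0.04 against MS (67 higher) and 0.10 against SM (76 higher). Atp5k had 3.02, 4.40 and 7.74 scaled CPM in D1 MM, against 2.29, 3.06 and 5.84 in D1 MS and 2.30, 3.47 and 4.58 in D1 SM (log2 differences 0.42 ± 0.23 and 0.39 ± 0.24). The D1 MM median lay above the medians of the other 2 groups, inside their ranges. Ndufs8, a core iron-sulfur subunit, differed by 0.39 ± 0.22 and Ndufa4l2, a hypoxia-linked relative of Ndufa4, by 0.34 ± 0.23 against D1 MS (edgeR adjusted p = 0.988). Against D1 SM, Cox6b2 differed by 0.38 ± 0.24 and Cox7c by 0.45 ± 0.28 (edgeR adjusted p = 1.00). The D1 interaction had 85 positive genes (median 0.41), no call (0%) and 0 genes at an unadjusted p under 0.05, against 2.32%. Without replicate 1 of D1 SS its median was 0.12, with 76 positive, and with the background covariate 0.02, with 54 positive. Without replicate 2 of D1 MS it was 0.55, with 13 genes at an unadjusted p under 0.05 (9.24% of all genes). With all D1 libraries kept, the smallest p values of the interaction were those of Ndufb2 (0.61 ± 0.34), Ndufa8 (0.40 ± 0.22) and Atp5mpl (0.60 ± 0.34). All 3 had an edgeR adjusted p of 0.782, and Atp5mpl is a small membrane protein of ATP synthase.

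Between the cell classes, the difference in saline-treated mice rested largely on 1 D1 library. In D2 SS against D1 SS, 81 of the 90 genes were lower and 9 higher (median log2 difference -0.52, against 0.03 over all 42870 genes), and none was called by edgeR, where 0.0467% of all genes were. The lowest adjusted p was 0.0983, and 68 members had an unadjusted p under 0.05, against 27.9% of all genes. With DESeq2's size factors edgeR called 59 members, all lower in D2 SS, where it called 19.2% of all genes (18.5% lower). DESeq2 called 71, all lower, where it called 23.2% of all genes (22% lower). All 35 complex I genes (median -0.53), all 9 of complex III (-0.54) and all 18 of ATP synthase (-0.57) were lower, with 6 of 8 of complex II (-0.37) and 13 of 20 of complex IV (-0.44). Uqcr10 had 2.31, 2.65 and 3.86 scaled CPM in D2 SS and 3.20, 3.66 and 11.9 in D1 SS (-0.70 ± 0.22), Ndufa5 differed by -0.53 ± 0.17 and Ndufv1 by -1.03 ± 0.33. For Uqcr10 the D2 SS median lay under every D1 SS library, and the ranges overlapped.

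That library was replicate 1 of D1 SS. Without it 79 genes were lower, the median was -0.19 and 2 genes had an unadjusted p under 0.05, against 3.56% of all genes. Uqcr10, Ndufa5 and Ndufv1 then differed by -0.40, -0.25 and -0.50, with an edgeR adjusted p of 0.924. With the background covariate the median was -0.09, with 75 lower and 3 at an unadjusted p under 0.05 (6.78% of all genes). With all libraries kept, the 9 genes higher in D2 SS were Sdhaf1, Sdhaf4, Cox8b, Cox7b2, Cox6b2, Cox8c, Ndufa4l2, Cox4i2 and Cox6a2, with log2 differences of 0.04 to 0.38. All 9 stood under 2 times background. In that same fit of all libraries, cytosolic ribosomal (81 of 84 lower, median -0.51), mitochondrial ribosomal (77 of 78, -0.34) and proteasome genes (34 of 39, -0.48) were lower. So were all 5 cortical glutamatergic markers (-0.82). Their sum had a median of 127 scaled CPM in D2 SS and 135 in D1 SS, where replicate 1 reached 769.

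The cell classes were compared in the same way under the other treatments. In D2 SM against D1 SM, 9 genes were higher and 81 lower (median -0.19), with no member called (0.0303% of all genes) and 0 at an unadjusted p under 0.05, against 2.16%. With the background covariate 44 were higher and 46 lower. In D2 MS against D1 MS, 77 were higher and 13 lower (median 0.10), with no call (0.0746%) and 0 at an unadjusted p under 0.05, against 2%. Without replicate 2 of D1 MS the median was 0.22, with 83 higher, and with the background covariate 0.03, with 58 higher. In D2 MM against D1 MM, 7 were higher and 83 lower (median -0.28), with no call (0.056%) and 9 at an unadjusted p under 0.05, against 4.89%. Without replicate 1 of D1 SS the median of MM was again -0.28, with 19 at an unadjusted p under 0.05 (8.47% of all genes), and with the background covariate it was -0.15, with 21 (11.1%). Under both of these settings the median of MM lay farther from 0 than that of SS. Atp5k led that comparison, with 2.32, 2.82 and 4.21 scaled CPM in D2 MM and 3.02, 4.40 and 7.74 in D1 MM (-0.67 ± 0.21, edgeR adjusted p = 0.631). The D2 MM median lay under every D1 MM library, and the ranges overlapped. Ndufs8 (-0.54 ± 0.19) and Cox4i1 (-0.64 ± 0.28) followed.

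Whether the treatment differences themselves differed between the classes was tested in the fit of all 61 libraries. For MS against SS, D2 minus D1, 82 genes were positive and 8 negative (median 0.64, against -0.06 over all genes), none was called (0%), and 58 had an unadjusted p under 0.05, against 24.7% of all genes. Ndufa5 (0.67 ± 0.23), Uqcrh (0.89 ± 0.31) and Ndufv1 (1.26 ± 0.45) had the smallest p, at an edgeR adjusted p of 0.149. DESeq2 called 47 members, all positive, where it called 14.4% of all genes (13% positive). Without replicate 2 of D1 MS, edgeR called 36, all positive, where it called 11.8% of all genes (10.9% positive). Ndufv1 had 9.85, 15.1 and 28.4 scaled CPM in D2 MS, 7.42, 9.04 and 12.5 in D2 SS, 8.22, 10.4 and 34.9 in D1 MS and 8.24, 13.3 and 63.9 in D1 SS. In the D1 groups the highest value of each belonged to the library that stood apart. Without replicate 1 of D1 SS the median was 0.30, with 81 positive and 2 at an unadjusted p under 0.05 (5.97% of all genes), and with the background covariate 0.12, with 73 positive. For MM against MS, D2 minus D1, 83 genes were negative (median -0.37), none was called (0%), and 3 had an unadjusted p under 0.05, against 3.57%: Atp5k (-0.75 ± 0.28), Ndufs8 (-0.63 ± 0.26) and Atp5mpl (-0.66 ± 0.30), at an edgeR adjusted p of 0.878. Without replicate 2 of D1 MS 28 genes had an unadjusted p under 0.05 (median -0.50), against 10.54% of all genes, and without replicate 1 of D1 SS 13 had (7.70%). The covariate for background gave a median of -0.17, with 10 genes (6.90% of all genes).

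Other genes of the pathway were given by lists. In D2 MS against D2 SS none of their genes was called. The citric acid cycle, which feeds the chain with NADH and succinate, had 17 of 18 enzyme genes higher (median 0.37, 15 at an unadjusted p under 0.05, against 32% of all genes). Carriers of electrons and nucleotides had 19 of 21 higher (0.21), assembly factors of the complexes 40 of 49 (0.20), and regulators of respiratory genes and of mitochondrial transcription 20 of 24 (0.19). Of 13 subunits encoded in mitochondrial DNA, 7 passed the filter, and all 7 were higher in D2 MS (median 1.17). Their list summed to 37.8, 78.8 and 105 scaled CPM in D2 MS and 26.5, 31.6 and 49.3 in D2 SS. In the D2 interaction the same 7 were negative (median -1.44). RNA of the mitochondrial genome in sorted nuclei can come from mitochondria that stay attached, and its share of all counts had a median of 0.0258% in D2 MS and 0.0128% in D2 SS. In D2 SS against D1 SS with all libraries kept, 17 of 18 citric acid cycle genes (-0.56), 20 of 21 carriers (-0.39), 43 of 49 assembly factors (-0.37), 22 of 24 regulators (-0.30) and all 7 mitochondrial genes (-0.75) were lower. No fit without replicate 1 of D1 SS is given for these lists. Summed regulators had medians of 1244 scaled CPM in D2 SS and 1265 in D1 SS, where the highest library reached 3004. Citric acid cycle sums had medians of 570 and 632, with a D1 SS highest of 1725, and the mitochondrial list 31.6 and 54.7.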

How the data were processed

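The authors deposited a table of raw gene counts and a table of FPKM values for 61 libraries. Per the submitters' processing notes the counts come from featureCounts on mm10, and DESeq2 is also named; the aligner, annotation release, strand setting and versions are not stated in any source read here. The gene length implied by the deposited FPKM values and counts matched the whole gene span of GENCODE M21 for 54281 of 54281 genes compared (relative tolerance 1e-06). Of 55401 identifiers, 54349 matched that release with version and 55141 without. All columns were mapped to samples by name.

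Counts were tested with edgeR 4.0.16 in R 4.3.3: TMM, a filter on low counts by group, robust quasi-likelihood fits, two-sided tests, and Benjamini-Hochberg adjustment over all genes, called under 0.05. D1 libraries (41083 genes), D2 libraries (41125) and all 61 (42870) were fitted separately, with 18 comparisons. edgeR's common coefficient of variation between libraries was 0.280 for D1 and 0.154 for D2. Levels per gene are CPM over TMM-scaled library sizes. Background is the summed count over 1420 olfactory and vomeronasal receptor genes per kilobase.

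Alternatives were DESeq2's size factors in edgeR, no filter, DESeq2 1.42.0, a replicate block, log2 background density as a covariate, leaving out D1 SS replicate 1, and a rule that needs the whole symbol to match (85 genes). Leaving out D1 MS replicate 2 was added after seeing the data. Scripts were tested on simulated counts. Tables and figures used Python 3.11.15, pandas 2.3.3 and matplotlib 3.10.9.

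The members and all gene lists were chosen with earlier results of these data known. Genes named are a fixed set covering each complex and isoform pair, the 3 members with the smallest p in each comparison, and genes at the ends of the range of level; any other member named, the 9 lower and 9 higher genes and Atp5d, Atp5h and Ndufa11 among them, was chosen after its values were seen. The listed symbols Coa1 and Gpr52 had no match.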

Additional observations from a re-analysis of the deposited data

Results flagged for a closer look

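For 12 measures in the 8 groups, the highest or lowest library was compared with the others of its group by Dixon's gap test (96 tests), and 21 values stood apart. Chance flags about 1 in 20 groups. Of these, 11 and 9 belong to a single library each, so they are not separate events, and no explanation was tested.

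In replicate 1 of D1 SS the summed level of 89 genes was 3406 TMM-scaled CPM, against 878 to 1473 in the other 7 libraries. In that library Ndufv1 stood at 63.9 CPM, Ndufs1 at 98.2, Ndufb10 at 33.7, Sdhb at 87.8, Uqcrc1 at 98.9, Cyc1 at 38.4, Cox4i1 at 19.5, Cox7c at 13.7, Atp5b at 121 and Atp5g3 at 27.1. The others reached at most 22.9 CPM for Ndufv1, 49.4 for Atp5b and 4.38 for Cox7c.

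In replicate 2 of D1 MS the summed level was 1886 CPM, against 920 to 1298 in the other 8 libraries, and the background density was 0.278 CPM per kilobase, against 0.439 to 0.561. There Ndufv1 stood at 34.9 CPM, Ndufs1 at 49.5, Ndufb10 at 24.3, Sdhb at 50.6, Uqcrc1 at 49.3, Cyc1 at 20.5 and Atp5g3 at 14.8. In replicate 3 of D2 SS, Atp5g3, a c-ring gene, stood at 6.64 CPM, against 3.18 to 4.60 in the other 6 libraries.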

How the results depend on the processing

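Of 132 counts of called genes under an alternative, 126 stayed at the 0 of the edgeR fit and 6 did not. In D2 MS against D2 SS, DESeq2 called 53 genes and edgeR with a replicate block 55 (54 higher and 1 lower; 8595 of all 41125 genes). In D2 SS against D1 SS, edgeR with DESeq2's size factors called 59 and DESeq2 71. For the D2 minus D1 difference of MS against SS, DESeq2 called 47 and edgeR without D1 MS replicate 2 called 36; the causes were not tested. Among single genes, Cox6b1 in D1 MS against D1 SS turned to 0.0046 with DESeq2, 0.0016 with the background covariate and 0.0029 without D1 SS replicate 1, and Sdhaf2 in D1 MM against D1 SS to 0.035 without that library; without D1 MS replicate 2 they stood at -0.54 and -0.28. The block pairs libraries by replicate number, but same-numbered libraries did not deviate together (median r of 0.023 in D1 and 0.0193 in D2, over 0.1 in 14 of 45 and 16 of 42 pairs), so the numbers are not taken as pairs. Shallow members such as Cox6a2, at a median of 10 counts, limit what their differences can show, and a missed threshold does not show that levels were equal.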
